A study of Mus musculus with 54 samples.

Results

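The genes described are 10 components of interleukin signalling in microglia: the cytokine genes Il6, Il10, Il12b, Il27 and Il15, the receptor genes Il6ra and Il10ra, and the feedback genes Socs1, Socs3 and Cish. They were taken by symbol from the count table, which lists 16632 genes, and all 10 were present and passed the filter on low counts. RNA was counted in 54 libraries of microglia, the immune cells that live in brain tissue, grown from neonatal C57BL/6 mice. All cells had been grown with L929 cell supernatant and shaken off an astrocyte layer, and each flask held pooled cells of 2 brains. Untreated cells (Untreated_Ctrl) received nothing further. Cells of the aSyn-only group (aSyn_Donor) received alpha-synuclein (aSyn), the protein that aggregates in Parkinson disease, at 1 µM and labelled with the dye Atto-488, for 14 h. Donors were loaded in the same way and then mixed with acceptors, which carried CellTracer Violet and no added aSyn, and the populations were sorted apart after 15, 30, 60, 150 or 300 min. Both populations also have a group at 0 min, whose handling the labels do not describe, and the labels do not say whether untreated and aSyn-only cells were sorted. Sorting and co-culture therefore cannot be told apart in comparisons with those groups.

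Interleukin-6, interleukin-10 and the interleukin-12 family bind receptors that signal through Janus kinases and STAT transcription factors. STATs switch on genes of the SOCS family, whose proteins then damp the same signal, so Socs3, Socs1 and Cish are commonly read as a trace of recent cytokine signalling. In microglia, interleukin-6 and the p40 subunit encoded by Il12b are typical products of inflammatory activation, while interleukin-10 restrains it.

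Samples carry a replicate number that runs through the groups and is called the experiment here. The labels give passage 3 for experiment 1, passage 1 for experiment 2 and passage 2 for experiments 3 and 4. For experiments 1 and 2, passage and experiment cannot be told apart. Experiments 1 to 4 gave 14, 14, 13 and 13 libraries, with totals between 7807389 and 15537493 counts. The untreated group has 6 libraries, and the pairs numbered 2 and 4 were summed, which leaves 52 units in 14 groups of 3 or 4. Nothing in the labels says that experiments came from separate animals, so p-values measure the spread between these samples. Experiment 4 carries its own run of facility numbers and stands apart. There the ribosomal precursor Rn45s took 13.4 to 22.3% of counts, against 1.42 to 13.5% in experiments 1 to 3. The labelled cell type was checked with 10 microglia markers, and all 10 had counts. Their summed level was 3184 to 5565 CPM (counts scaled to library size) in the other units and 1563 to 1837 CPM in the 6 aSyn-loaded units of experiment 4. Levels below are CPM on TMM-scaled library sizes. They are not compared between genes, and in bulk RNA fewer expressing cells and less RNA per cell cannot be told apart.

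In the edgeR test without a replicate block, 0 of the 10 genes passed an adjusted p of 0.05 in any of the 19 pairwise comparisons or the 3 tests of change over time. Over the 190 gene and comparison pairs, the smallest adjusted p was 0.0626, for Socs1. DESeq2 called Socs3 in aSyn-only against untreated cells, Socs1 in acceptors at 30 min against untreated cells, and Socs1 in donors against acceptors at 30 min. The share of all genes that DESeq2 called was not computed, so whether these calls are particular to the 10 genes cannot be told. Same-numbered units deviated together from their group means, so each test was also fitted with the experiment as a block, and 22 of the 190 pairs then passed, 21 higher and 1 lower. Between aSyn-only and untreated cells, 0 of 10 passed without the block, where 2.5% of all 13169 tested genes did, and 4 of 10 passed with it, where 19.2% did. All 4 were higher, as were 8.95% of all genes. The 4 were Il6, Il12b, Socs3 and Cish, and the calls of Il6 and Il12b come from experiment 4. In experiments 1 to 3 with the block, a fit added after the data were seen, 1 of 8 tested genes passed, which was Socs3. In that comparison the median log2 fold change of the 10 genes was 0.36 without the block, against -0.04 over all genes. Il6, whose untreated group lies at the floor of 3 counts, was at least 12-fold higher by group means, and at that bound the median is the same.

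For acceptors against untreated cells, 0 of 10 passed without the block at each time, where 0, 0, 0.114, 0.0683, 0.137 and 0% of all genes passed from 0 to 300 min. With the block, 1, 0, 1, 3, 3 and 0 of the 10 passed, beside 0.995, 2.25, 3.6, 4, 4.78 and 0.623% of all genes. For donors against acceptors at the same times, 0 of 10 passed without the block, beside 0.251, 0.888, 0.805, 0.418, 0.167 and 0.0304% of genes. With the block the counts were 1, 2, 4, 1, 1 and 1 of 10, beside 4.28, 9.57, 10.8, 6.7, 5.19 and 1.38% of genes. For donors against aSyn-only cells, 0 of 10 passed at any time with or without the block. There at most 0.0304% of all genes passed without the block and 0.304% with it, both at 300 min. The tests of change over time, in donors, in acceptors and in their difference, passed for 0 of 10 in both fits. Of all genes, 0.0607, 0.00759 and 0% passed them without the block and 0.577, 0.137 and 0.0456% with it. All donor times share the aSyn-only units, and all acceptor times share the untreated units.

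Il6 (chr5:30013114-30019981, plus strand, GRCm38) encodes interleukin-6. Its promoter window is printed because the cytokine was nearly absent in most units and abundant in a few. The capitals mark a match to the kappaB motif at positions -44 to -35, counted from the start site as 1 with no position 0, and a match to the AP-1 motif TGANTCA at positions -249 to -243. RefSeq gives promoter windows of 250 bases before and 50 after the start for 6 of the 10 genes, and the one for Il6 lies at chr5:30012864-30013163, plus strand (GRCm38.p6). On either strand, the kappaB motif occurs in 8.46% and the AP-1 motif in 7.81% of 32851 such windows of the genome.
Il6: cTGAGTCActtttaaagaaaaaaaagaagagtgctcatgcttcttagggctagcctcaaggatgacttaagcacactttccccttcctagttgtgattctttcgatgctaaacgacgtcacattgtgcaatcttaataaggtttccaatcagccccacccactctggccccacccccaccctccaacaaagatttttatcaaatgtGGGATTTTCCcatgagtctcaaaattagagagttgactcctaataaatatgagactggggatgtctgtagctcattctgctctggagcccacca
The windows of Il12b, Il6ra and Socs1 hold neither motif, nor the STAT motif named below.

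Il6 transcripts came almost wholly from experiment 4. Of its 1844 counts, 92.5% lay in the 6 aSyn-loaded units of that experiment, where counts ran from 107 to 553. In experiments 1 to 3 the highest count was 8 (0.517 CPM), and 36 of 40 units held at most 3. A count of 0 allows up to 3 counts, which is between 0.113 and 0.387 CPM depending on the unit, for counting error only. In experiment 4 Il6 was at 0.0754 CPM in untreated cells and 9.34 CPM in aSyn-only cells, at least 82.6-fold higher against the floor of 3 counts. Donors of experiment 4 then gave 20.1, 10.9, 35.5, 40.4 and 16.6 CPM from 15 to 300 min. The highest donor value thus fell at 150 min, 4.32-fold above the aSyn-only unit. Acceptors of experiment 4, which had received no aSyn themselves, gave 0.517, 1.38, 1.76, 4.11 and 0.295 CPM at the same times. That series also had its highest value at 150 min, at least 36.3-fold above the untreated unit. In every acceptor unit of experiments 1 to 3 Il6 had at most 2 counts.

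With the block, edgeR called Il6 higher in aSyn-only than in untreated cells (adjusted p 2.66e-05), in acceptors at 60 min (0.0286) and 150 min (0.00278), and in donors over acceptors at 15, 30, 60, 150 and 300 min (0.00029, 0.0124, 0.00166, 0.00202 and 0.0172). Fitted fold changes are not given because the lower group is at or near the floor. These calls rest on experiment 4: in experiments 1 to 3 alone Il6 and Il12b fell below the filter and were not tested. Within experiment 4, donors exceeded acceptors 38.9-fold at 15 min, 7.93-fold at 30 min and 56.4-fold at 300 min. Experiment 4 has 1 unit per group, so these ratios have no replicate check.

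Il12b (chr11:44400063-44414033, plus strand) encodes p40, the subunit shared by interleukin-12 and interleukin-23. Of its 4101 counts, 92.0% lay in the same 6 units. Outside experiment 4 its highest count was 8. In experiment 4 Il12b was at 0.264 CPM in untreated cells, 58.5 CPM in aSyn-only cells, and 41.6, 63.9, 35.7, 55.3 and 48.7 CPM in donors from 15 to 300 min. The donor values of Il12b thus lay between 0.611 and 1.09 times the aSyn-only value, and those of Il6 between 1.17 and 4.32 times. Acceptors of experiment 4 gave 4.14, 0.162, 3.15, 6.71 and 7.58 CPM. The value at 30 min is 2 counts, between 48 counts at 15 min and 34 at 60 min. With the block, edgeR called Il12b higher in aSyn-only than in untreated cells (adjusted p 7.76e-05), in acceptors at 150 min (0.00476) and in donors over acceptors at 30 min (0.000442). The first of these p-values stands for 1 unit against 1 unit, since both groups were at 0 counts in experiments 1 to 3. The call at 30 min likewise rests on experiment 4 alone. In experiments 1 to 3 donors at 30 min were at 0 counts and acceptors had at most 1 count. A further call in acceptors at 0 min (0.0256) rests on 8 counts in experiment 2 and 1 count in experiment 1. Without the block the log2 fold change there was 1.36, and without both the block and experiment 2 it was -1.41. These fitted values depend on counts at the floor.

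The 6 units that hold Il6 and Il12b also differed in markers of other cells. Of 4 dendritic cell markers 3 were in the table, and their summed level was 11.2 to 18.6 CPM there, against 1.09 to 4.98 CPM in the other units of experiment 4 and 3.38 to 9.35 CPM in aSyn-loaded units of experiments 1 to 3. Xcr1 made up most of it (9.09 to 16.8 CPM), Ccr7 was at 0.960 to 3.14 CPM, and Zbtb46 was at 0 in 3 of the 6 units. Microglia markers did not all move one way. Against the other units of experiment 4, Cx3cr1 (18.5 to 33.4 against 92.8 to 349 CPM), Trem2 (31.8 to 43.6 against 524 to 669 CPM), Fcrls and Csf1r were lower without overlap, and Itgam was higher without overlap (588 to 664 against 264.03 to 447 CPM). P2ry12, Tmem119, Aif1 and Sall1 overlapped. Summed markers of fibroblasts and meninges (4 of 4 in the table) were high in all of experiment 4: 5.07 to 13.4 CPM in the aSyn-loaded and 4.12 to 24.5 CPM in the other units, against medians of 0.283 and 0.174 CPM in experiments 1 to 3. Summed astrocyte markers (8 of 8 in the table) were 9.83 to 29.3 CPM in the aSyn-loaded units of experiment 4. That lies inside the range of 8.79 to 35.3 CPM of aSyn-loaded units in experiments 1 to 3. The part of these markers in the cytokine result was not tested.

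**Figure D1:**
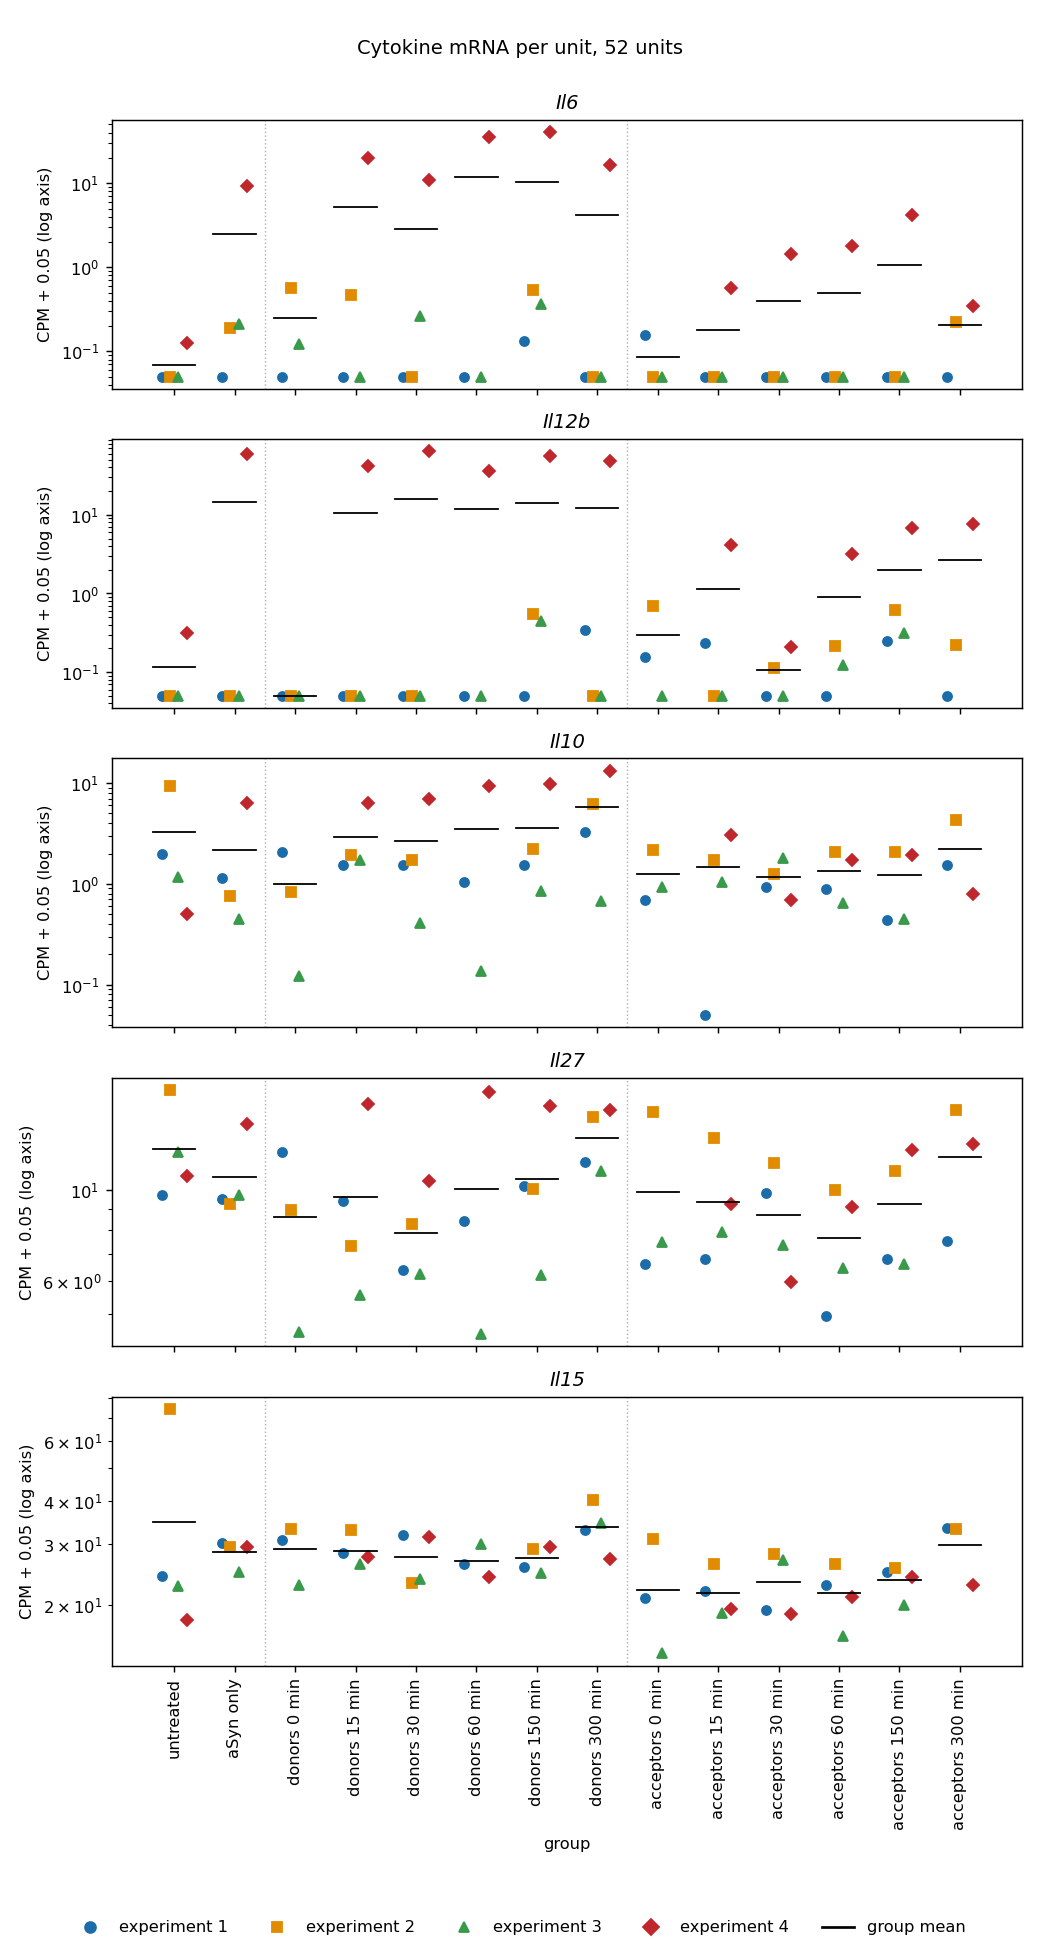
CPM of the 5 cytokine genes (log axis, 0.05 added) in each unit of the 14 groups, with symbols for the 4 experiments and bars for group means. For Il6 and Il12b the aSyn-loaded units of experiment 4 reach 9.34 to 40.4 and 35.7 to 63.9 CPM, while units of experiments 1 to 3 stay at or under 0.644 CPM.

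Il10 (chr1:131019845-131024974, plus strand) encodes interleukin-10. Untreated units gave 1.92, 9.38, 1.11 and 0.452 CPM for experiments 1 to 4. The aSyn-only units gave 1.11, 0.711, 0.398 and 6.28 CPM. The order of the experiments thus turned over: experiment 2 was high without aSyn, in both of its libraries (101 and 114 counts), and experiment 4 was high with it. Donors of experiment 4 gave 6.34, 6.88, 9.33, 9.63 and 13.2 CPM from 15 to 300 min, and donors of experiments 1 to 3 lay between 0.0719 and 6.08 CPM. At 300 min donors gave 3.24, 6.08, 0.623 and 13.2 CPM, each above the aSyn-only unit of its experiment. That difference did not pass (log2 fold change 1.49, SE 0.77 with the block, adjusted p by edgeR 0.609). Across times donors exceeded same-experiment acceptors in 17 of 21 pairs, and Il10 passed in 0 of the 19 comparisons with or without the block.

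Il27 (chr7:126589010-126594941, minus strand) encodes the p28 subunit of interleukin-27 and overlaps Apobr on the other strand. Untreated units gave 9.69, 17.6, 12.3 and 10.8 CPM and aSyn-only units 9.5, 9.24, 9.7 and 14.5 CPM. Experiment 2 stood high among untreated units and experiment 4 among aSyn-only units, as for Il10. Il27 passed in no comparison in either fit, and donors exceeded acceptors in 10 of 21 same-experiment pairs. The largest group mean was 13.4 ± 2.30 CPM in donors at 300 min (SD, n = 4) and the smallest 7.58 ± 2.35 CPM in acceptors at 60 min (SD, n = 4).

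Il15 (chr8:82331632-82403222, minus strand) encodes interleukin-15, a survival factor for lymphocytes that is related in signalling to interleukin-2. In untreated cells it was at 24.2, 74.3, 22.6 and 18.0 CPM, and the high unit is experiment 2, with 725 and 979 counts in its libraries. Acceptors at 60 min gave 22.7, 26.3, 16.2 and 21.0 CPM, which overlaps the untreated group. With the block the log2 fold change was -0.61 (SE 0.21, adjusted p by edgeR 0.0915). In experiments 1 to 3 with the block, Il15 was lower than in untreated cells at 0 min (-0.84, SE 0.23, adjusted p by edgeR 0.0418) and at 60 min (-0.85, SE 0.23, 0.0413). Both calls include the high untreated unit of experiment 2. That unit also had the highest summed dendritic cell markers of the untreated group (10.1 CPM), whose part was not tested. Of all genes, 2.09 and 1.51% were called lower at those times in that fit. Donors stayed between 22.9 and 40.3 CPM, and they exceeded same-experiment acceptors in 18 of 21 pairs without a call at any time.

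Il6ra (chr3:89864059-89913196, minus strand, overlapping Gm42809 on the other strand) encodes the binding chain of the interleukin-6 receptor. It was at 45.6, 63.5, 29.4 and 40.5 CPM in untreated cells and 81.2, 93.9, 37.6 and 68.8 CPM in aSyn-only cells. Each aSyn-only unit was above the untreated unit of its experiment, but the groups overlapped and the difference did not pass (log2 fold change 0.63, SE 0.33 with the block, adjusted p by edgeR 0.187). Donors at 300 min were at 47.5, 62.3, 43.9 and 39.6 CPM, close to the untreated levels. The experiment held 50.9% of the Il6ra variance in log2 CPM and the group 14.4%, beside medians of 33.9 and 25.0% over all genes. These shares are not on one scale, because 14 groups take up more variance by chance than 4 experiments. Experiment 3 was the lowest in most groups, and its acceptors were at 9.96 CPM at 0 min and 4.34 CPM at 30 min, with 29.8 CPM between them at 15 min. In those low units the microglia markers summed to 4943 to 5255 CPM and those of the oligodendrocyte lineage to 245.9 to 266.4 CPM. Astrocyte markers summed to 30.6 to 32.2 CPM there. Lineage sums also reached 573 CPM in untreated units, where Il6ra was at 29.4 CPM or more. In acceptors at 60 min they reached 212 CPM, with Il6ra at 51.4 CPM or more. The part of these markers was not tested.

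Il10ra (chr9:45253837-45269149, minus strand) encodes the ligand-binding chain of the interleukin-10 receptor, and overlaps Mir7086 on its own strand and Gm20612 on the other. It was at 47.9, 109, 56.6 and 44.5 CPM in untreated cells and 82.4, 90.9, 59.6 and 36.2 CPM in aSyn-only cells. Group means lay between 46.9 and 73 CPM, closer together than the units within most groups. The experiment held 63.8% of its variance and the group 17.4%, beside medians of 33.9 and 25.0% over all genes. In the 6 aSyn-loaded units of experiment 4, where Il10 was high, Il10ra was low (36.1 to 46.5 CPM), and in the acceptors of that experiment it was at 35.4 to 56.7 CPM. No comparison passed in either fit.

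**Figure D2:**
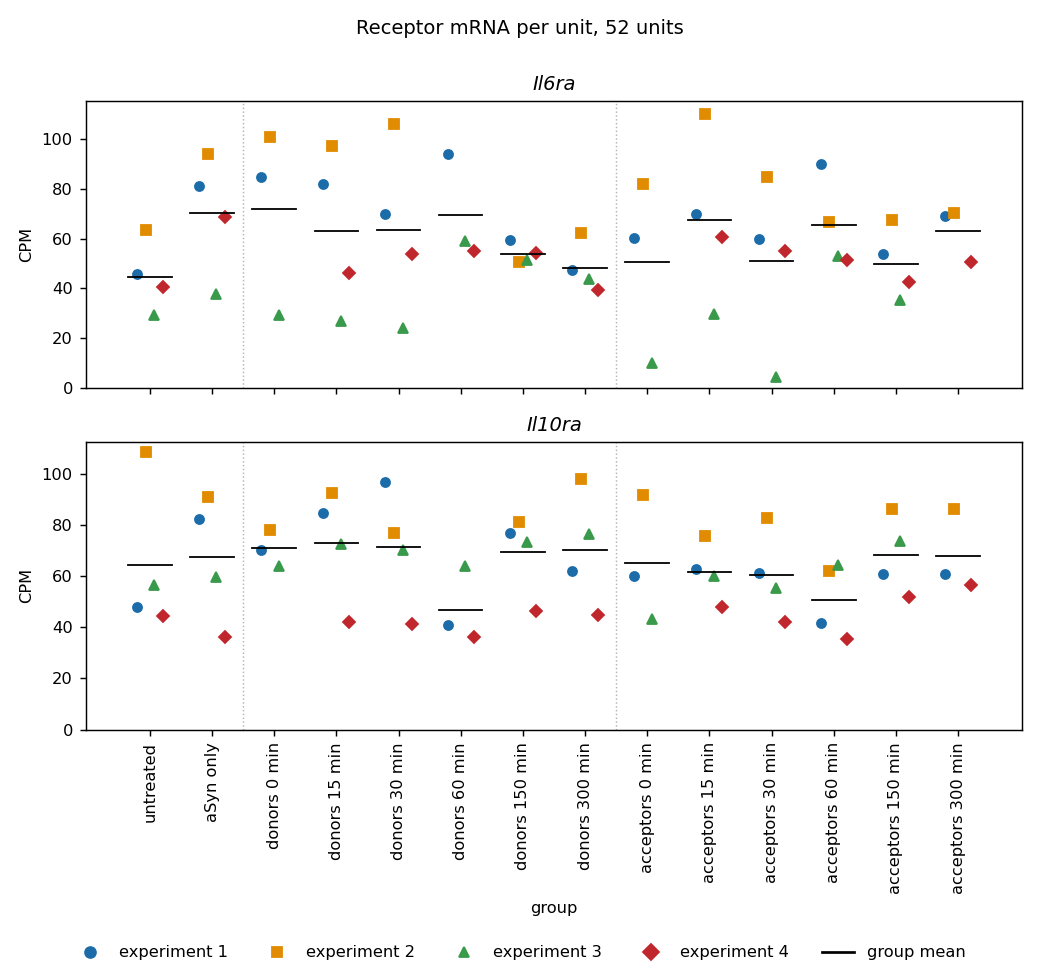
CPM of Il6ra and Il10ra (linear axis) in each unit of the 14 groups, with symbols for the 4 experiments and bars for group means. Experiment 3 acceptors at 0 and 30 min stand low for Il6ra, and experiment 4 units lie at the low end of most groups for Il10ra.

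Socs3 (chr11:117966079-117970047, minus strand) encodes the inhibitor that binds the interleukin-6 signalling receptor chain and is a classical STAT3 target. Its promoter window (chr11:117969317-117969616, minus strand, GRCm38.p6, RefSeq) is shown beside that of Cish (chr9:107296409-107296708, plus strand) because both hold the STAT motif TTCNNNGAA, marked in capitals. The motif lies at positions -154 to -146 of Socs3, and at 1 to 9 and 12 to 20 of Cish. It occurs on either strand in 8.3% of the 32851 windows, and its matches overlap no match of the other motifs. A match is a description of these letters and shows no binding.
Socs3: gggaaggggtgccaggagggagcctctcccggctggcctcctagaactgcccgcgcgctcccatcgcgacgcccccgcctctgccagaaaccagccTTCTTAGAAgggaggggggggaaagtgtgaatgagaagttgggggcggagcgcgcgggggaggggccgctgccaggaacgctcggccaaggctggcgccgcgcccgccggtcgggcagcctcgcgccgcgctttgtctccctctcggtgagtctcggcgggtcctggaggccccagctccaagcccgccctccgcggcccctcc
Cish: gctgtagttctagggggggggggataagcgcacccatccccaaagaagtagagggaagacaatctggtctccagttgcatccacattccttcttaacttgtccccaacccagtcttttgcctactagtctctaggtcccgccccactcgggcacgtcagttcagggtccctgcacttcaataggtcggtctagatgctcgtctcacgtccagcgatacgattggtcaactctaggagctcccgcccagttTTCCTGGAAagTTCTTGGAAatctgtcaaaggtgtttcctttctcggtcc

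Socs3 was higher in aSyn-only than in untreated cells in each of the 4 experiments. Untreated units gave 2.83, 3.31, 6.43 and 3.51 CPM. The aSyn-only units gave 19.0, 21.0, 25.1 and 182 CPM. The groups did not overlap, which held in this direction for 4.5% of all genes, and Socs3 was the 1 gene of the 10 for which it held. The same-experiment ratios were 6.73, 6.33, 3.91 and 52. The last rests on an untreated unit summed from libraries that differed, with 23 and 70 counts (1.60 and 5.38 CPM of library totals). Without the block the log2 fold change was 3.95 (SE 1.37, adjusted p by edgeR 0.115), and with it 2.99 (SE 0.49, 3.42e-05). In experiments 1 to 3 with the block it was 2.43 (SE 0.28, 2.81e-07), where 6.54% of all genes were called higher. Leaving out experiment 4 without a block gave 2.39 with an adjusted p by edgeR of 0.00262. In the same comparison with the block, 5 of 8 astrocyte markers were lower (median log2 fold change -1.90) and 3 of 7 oligodendrocyte lineage markers were lower (-1.77). Of all genes 19.2% passed in either direction and 8.95% were higher. Of 10 microglia markers 2 were lower and 1 higher, and 1 of 2 endothelial and 1 of 3 dendritic cell markers were higher. For acceptors against untreated cells, 0 to 2 astrocyte and 1 to 3 oligodendrocyte lineage markers were lower, depending on the time. Beside them, 0.623 to 4.78% of all genes passed in either direction. Their part in any difference from untreated cells was not tested.

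In donors the course of Socs3 over time differed between experiments 1 to 3 and experiment 4. At 0 min, in experiments 1 to 3, donors were at 23.2, 22.3 and 31.5 CPM, and at 15 min at 40.3, 26.1 and 31.8 CPM. At 150 min they were at 7.70, 9.03 and 15.4 CPM, and at 300 min at 5.52, 3.80 and 9.52 CPM, near the untreated levels. In each of experiments 1 to 3 the 300 min value was thus below every earlier donor value. Donors of experiment 4 stayed at 233.01, 185, 271, 197 and 159 CPM from 15 to 300 min. The test of change over the donor times had an adjusted p by edgeR of 1 without and 0.181 with the block over all experiments. With the block in experiments 1 to 3 it was 4.4e-06, where 1.58% of all genes passed. That fit, also used below, was added after the data were seen and leaves out the experiment whose course differed. Against aSyn-only cells, donors at 300 min differed by -1.89 on the log2 scale in experiments 1 to 3 (SE 0.27, adjusted p by edgeR 0.00038), where 0.788% of genes were lower. In experiment 4 that ratio was 0.870, and over all experiments with the block the difference did not pass (-1.23, SE 0.43, 0.318).

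Acceptors, which had taken no aSyn before mixing, had their highest Socs3 at 60 or 150 min. At 0 min they were at 8.83, 4.03 and 6.82 CPM in experiments 1 to 3. At 60 min all 4 experiments gave 14.1, 8.11, 19.0 and 195 CPM, and at 150 min 11.0, 9.83, 13.4 and 154 CPM. At both times every acceptor unit was above every untreated unit, which held for 2.15 and 2.41% of all genes. With the block the log2 fold changes were 2.5 (SE 0.49, adjusted p by edgeR 0.00212) and 2.25 (SE 0.49, 0.00476). In experiments 1 to 3 they were 1.68 (SE 0.28, 0.00085) and 1.48 (SE 0.28, 0.0026), where 1.29 and 1.31% of genes were called higher. The difference at 30 min passed in that fit too (1.07, SE 0.28, adjusted p by edgeR 0.0225, 1.99% of genes called higher). At 300 min acceptors gave 7.06, 2.39 and 92.8 CPM in experiments 1, 2 and 4. In experiment 4 acceptors were at 28.4 CPM at 15 min, 42.7 CPM at 30 min and 195 CPM at 60 min, when Il6 was at 1.76 CPM in the same unit.

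For Socs3, donors exceeded acceptors at 0, 15 and 30 min with the block, and later differences did not pass. At 0 min donors were above acceptors in 3 of 3 experiments, with no overlap (8.63% of all genes), and the ratios were 2.63, 5.54 and 4.61. With the block the log2 differences at 0, 15 and 30 min were 2.00 (SE 0.53, adjusted p by edgeR 0.0209), 2.29 (SE 0.46, 0.000865) and 1.64 (SE 0.44, 0.0124). At 60, 150 and 300 min they were 0.49, 0.06 and 0.34, with adjusted p by edgeR of 0.553, 0.963 and 0.793. The change of the donor and acceptor difference over time was itself tested. It did not pass over all experiments (adjusted p by edgeR 1, and 0.548 with the block) and passed in experiments 1 to 3 with the block (0.00505, beside 0.0994% of all genes). By mean level in experiments 1 to 3, the order ran from donors at 15 min (32.7 ± 7.16 CPM, SD, n = 3) through aSyn-only cells (21.7 ± 3.12, n = 3) and acceptors at 60 min (13.7 ± 5.45, n = 3) to untreated cells (4.19 ± 1.95, n = 3). Neighbours such as donors at 0 min (25.7 ± 5.06) and at 30 min (25.4 ± 10.9) differed by less than their spread.

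**Figure D3:**
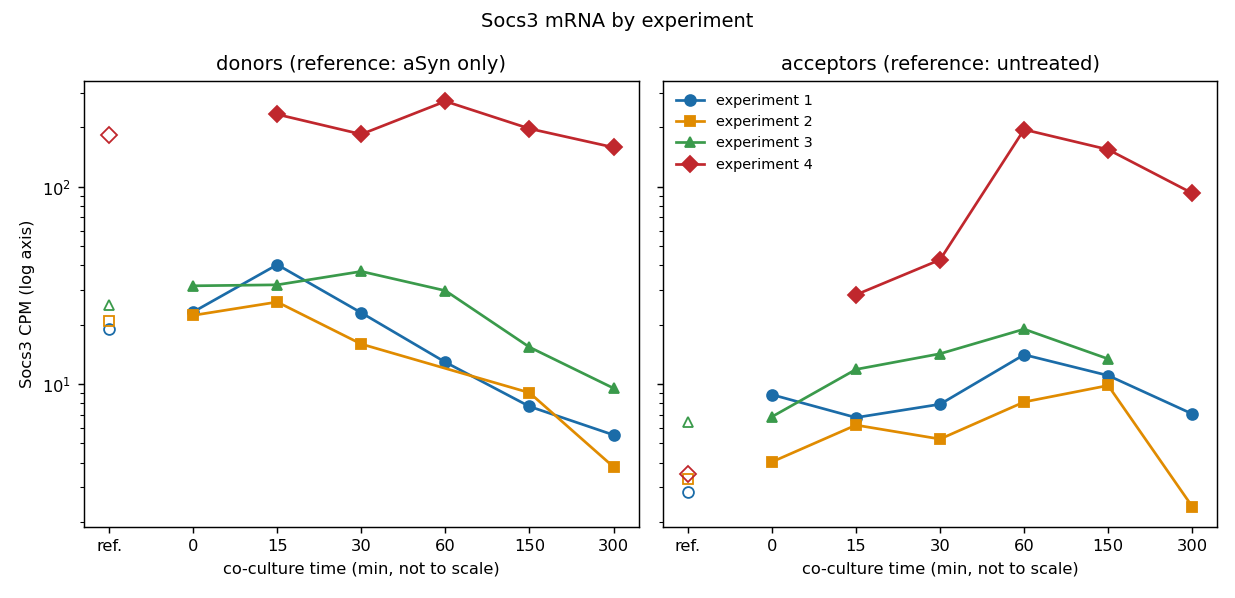
Socs3 CPM (log axis) against co-culture time for donors (left) and acceptors (right), a line per experiment, with open symbols for the aSyn-only (left) or untreated (right) unit of that experiment. Lines join the measured times, and experiment 2 has no donor unit at 60 min. Donor lines of experiments 1 to 3 fall to 3.80 to 9.52 CPM at 300 min, while experiment 4 stays at or above 159 CPM.

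Cish (chr9:107296026-107302784, plus strand) encodes a SOCS protein induced through STAT5 and overlaps Gm17040 and Gm17041 on the other strand. Its counts were low, at most 75 in any unit and at or under 3 in 19 of 52. Untreated units gave 0, 0.174, 0.343 and 0.377 CPM, and aSyn-only units 0.147, 1.21, 2.70 and 2.09 CPM. Each aSyn-only unit was above its untreated unit, although experiment 1 had 2 counts against 0. With the block Cish rose by 2.79 on the log2 scale (SE 0.88, adjusted p by edgeR 0.0222), and in experiments 1 to 3 it did not pass (2.77, SE 1.03, 0.074). Acceptors at 60 min were at 0.212, 0.487, 3.80 and 5.46 CPM. Against untreated cells the block gave a log2 fold change of 3.14 (SE 0.88, adjusted p by edgeR 0.0322). In experiments 1 to 3 with the block this difference did not pass (adjusted p by edgeR 0.152). At 0 min donors were at 0.7, 1.42 and 1.37 CPM and acceptors at 0, 0.242 and 0.273 CPM, without overlap, as held for 8.63% of all genes. That difference passed in neither fit, and neither did any later one between donors and acceptors. Over all times donors were the higher in 11 of 21 same-experiment pairs, with 0 of 3 at 60 min and 1 of 4 at 150 min.

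Socs1 (chr16:10782240-10785536, minus strand) encodes the inhibitor that acts chiefly on interferon signalling. Between untreated and aSyn-only cells it did not pass: untreated units gave 2.72, 10.2, 4.20 and 1.58 CPM and aSyn-only units 3.39, 0.640, 4.29 and 2.79 CPM. The aSyn-only unit was the higher one in 3 of 4 experiments. Experiment 2 went the other way, being highest among untreated units and lowest among aSyn-only units, where it had 9 counts. Acceptors at 30 min were at 0.473, 1.90, 0.914 and 1.62 CPM, and donors at 30 min at 6.18, 4.01, 5.19 and 3.10 CPM. Every donor unit at 30 min was thus above every acceptor unit, which held for 3.31% of all genes. The log2 difference was 1.91 (SE 0.51, adjusted p by edgeR 0.0626) without and 1.92 (SE 0.50, 0.00952) with the block. In experiments 1 to 3 with the block it was 2.28 (SE 0.59, adjusted p by edgeR 0.0122), where 4.99% of genes were called higher. Against untreated cells, acceptors at 30 min were lower by -1.84 with the block (SE 0.49, adjusted p by edgeR 0.028) and by -2.37 in experiments 1 to 3 (SE 0.58, 0.0159, 2.58% of genes called lower). The groups overlapped, and in experiment 4 that ratio was 1.02. Donors exceeded acceptors in 19 of 21 same-experiment pairs over all times. The group held 43.7% of the Socs1 variance and the experiment 2.00%. For Il6 these shares were 14.2 and 68.6%, for Il12b 10.9 and 74.1%, and for Socs3 34.6 and 57.3%. Over all genes the medians were 25.0 and 33.9%. The group and experiment shares of a gene are not on one scale, because 14 groups take up more variance by chance than 4 experiments.

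**Figure D4:**
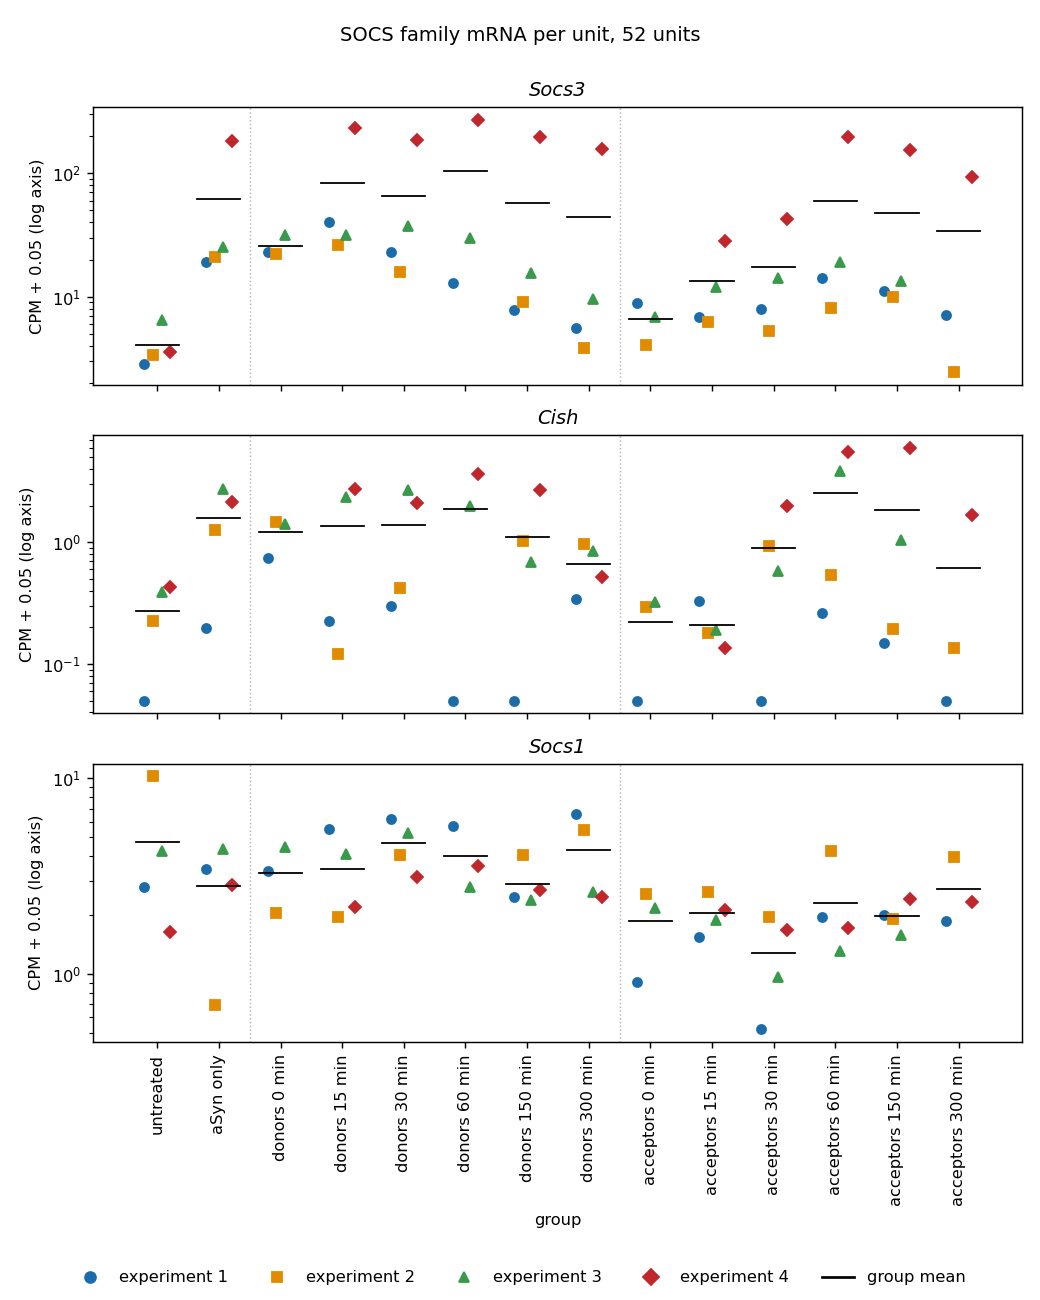
CPM of Socs3, Cish and Socs1 (log axis, 0.05 added) in each unit of the 14 groups, with symbols for the 4 experiments and bars for group means. Every aSyn-only unit lies above every untreated unit for Socs3, and every donor unit at 30 min lies above every acceptor unit at 30 min for Socs1.

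**Figure D5:**
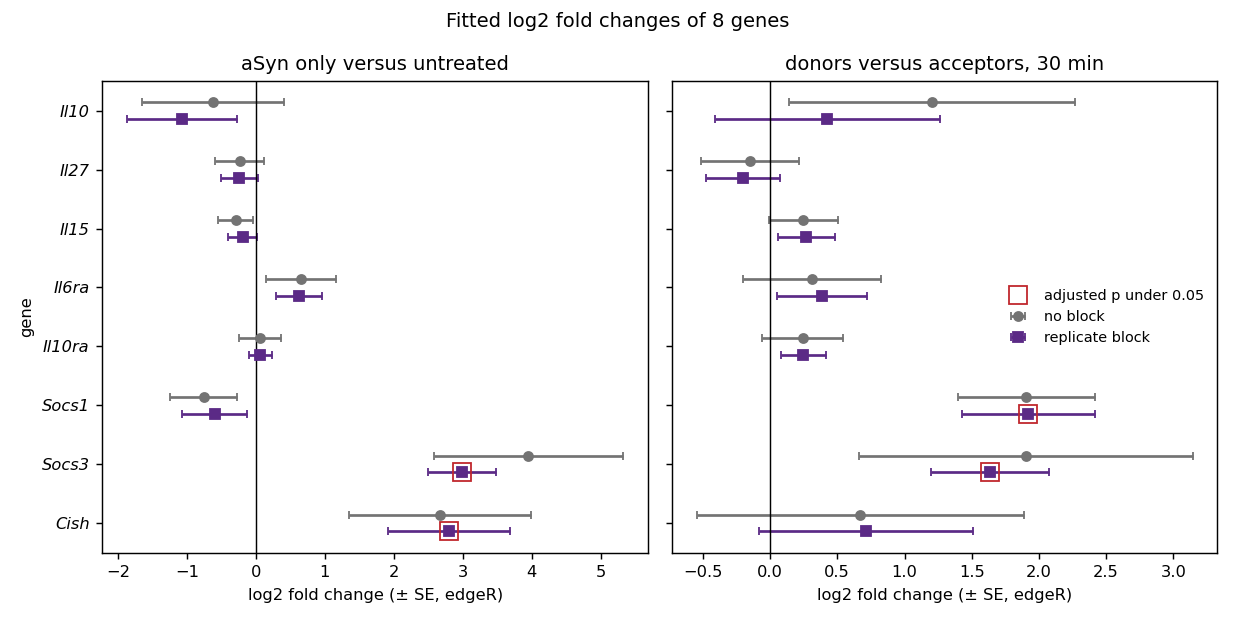
Fitted edgeR log2 fold changes with SE for 8 of the 10 genes, in aSyn-only against untreated cells (left) and donors against acceptors at 30 min (right). Circles are the fit without and squares the fit with the replicate block, and red frames mark adjusted p under 0.05. Il6 and Il12b are left out because their fitted values depend on counts at the floor, and the block narrows the Socs3 error at left from 1.37 to 0.49.

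The plot of fitted fold changes shows smaller errors with the block for Socs3 and Cish in both comparisons. For Socs1 at 30 min both fits gave nearly equal differences and errors.

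Other genes of the same pathways were taken from 7 lists. Among receptor chains, 3 of 10 tested genes were higher and 0 lower in aSyn-only than in untreated cells without the block, and 4 were higher and 1 lower with it. Over all genes in this comparison 2.5% passed without the block and 19.2% with it, 8.95% higher. Il4ra, the interleukin-4 receptor chain, was at 35.9, 58.4, 27.5 and 26.9 CPM in untreated and 77.1, 124, 95.9 and 173 CPM in aSyn-only cells, with no overlap (log2 fold change 1.66, SE 0.35, adjusted p by edgeR 0.00462). Csf2rb, the shared signalling chain for interleukin-3, interleukin-5 and GM-CSF, was at 135, 140, 136 and 109 CPM in untreated and 434, 311, 367 and 372 CPM in aSyn-only cells (1.51, SE 0.21, adjusted p by edgeR 4.38e-05). Its neighbour Csf2rb2, a near copy whose reads may be split with Csf2rb, rose by 0.94 (SE 0.23, adjusted p by edgeR 0.0185). All 3 of these chains were higher with aSyn in each of the 4 experiments, and the groups did not overlap, as held for 4.5% of all genes. With the block Il2rg, the common gamma chain, was also higher (0.81, SE 0.28, adjusted p by edgeR 0.0331) and Lifr, the LIF receptor, lower (-1.58, SE 0.47, 0.015). Csf2rb was also higher in acceptors than in untreated cells at 60 min (1.03, adjusted p by edgeR 0.0273) and 150 min (1.27, 0.00168), and in donors than in acceptors at 15 min (0.82, 0.0403). Il4ra was higher in donors than in acceptors at 15, 30 and 60 min (1.34, 1.45 and 1.53, adjusted p by edgeR 0.0497, 0.03 and 0.0449). The common chain Il6st, through which interleukin-6 signals, was at 41.1, 37.4, 28.8 and 51.5 CPM in untreated and 41.1, 49.3, 23.1 and 22.4 CPM in aSyn-only cells, which overlap.

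Among 10 STAT3 response genes, 1 was higher in aSyn-only cells without the block, and 5 were higher and 1 lower with it, beside the shares of 2.5% and 19.2% of all genes. Il1rn, which encodes the interleukin-1 receptor antagonist, went from 25.4, 154, 57.6 and 51.0 CPM to 248.6, 328, 383 and 2461 CPM (log2 fold change 3.57, SE 0.92, adjusted p by edgeR 0.0256). The unit of experiment 4 was the highest, as for Socs3. Nfil3 was at 15.4, 9.68, 8.66 and 9.99 CPM in untreated and 25.3, 31.2, 37.9 and 37.4 CPM in aSyn-only cells, and passed with the block (1.53, SE 0.37, adjusted p by edgeR 0.00271). Bcl3, Pim1 and Tnfaip3 were higher with the block as well (1.20, 1.21 and 1.08, adjusted p by edgeR 0.00478, 0.00391 and 0.00917), and Etv3 was lower (-0.63, 0.0443). Among 10 mRNA decay factors, 1 was higher without the block and 2 with it, Zc3h12a and Zc3h12c, beside the same shares of all genes. Zc3h12a, which encodes Regnase-1, an RNase that degrades Il6 and Il12b transcripts, was at 7.47, 9.81, 11.0 and 7.95 CPM in untreated and 17.5, 18.1, 19.2 and 26.8 CPM in aSyn-only cells (1.17, SE 0.32, adjusted p by edgeR 0.0385).

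Without the block, 0 of 10 kinases and STATs, 0 of 14 other negative regulators, 0 of 7 other ligands and 0 of 13 transcription regulators passed in that comparison. With it, 2 kinases and STATs were higher and 1 lower, 2 negative regulators were higher and 2 lower, 3 ligands were higher and 0 lower, and 3 transcription regulators were higher and 1 lower, beside 19.2% of all genes in either direction. The kinases Jak1 and Jak2 were higher (0.26 and 0.68) and Stat5b lower (-0.42). The phosphatases Ptpn1 and Ptpn2 were higher (0.40 and 0.39), and Socs5 and Pias1 lower (-0.71 and -0.35). The ligands were Clcf1, Il7 and Csf3 (adjusted p by edgeR 0.00643, 0.0384 and 0.0281 with the block). Rel, Cebpb and Irf5 were higher (0.67, 1.15 and 0.38), and Maf lower (-0.63). Stat3 itself was at 126 to 199 CPM in untreated and 148 to 209 CPM in aSyn-only units, and did not pass. In experiment 4 acceptors at 150 min it was at 448 CPM, against 142 to 160 CPM in acceptors of the other experiments at that time.

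The 3 genes whose log2 CPM followed Socs3 most closely over the 52 units, each taken as the difference from the mean of its experiment, were Cxcl2 (Pearson r 0.91), Zc3h12a (0.90) and Cxcl1 (0.89). For Il6 they were Psmd12, Mlx and Ptgs2 (r 0.85 to 0.83), for Il12b Wfdc17, Shisa3 and Upp1 (0.82 to 0.79), and for Cish Nfil3, Hilpda and Pde4b (0.69 to 0.62). Socs1 ran closest to Daxx, Tent4a and Tnfsf10 (0.73 to 0.72), Il10 to Ankfy1, Cept1 and Ebi3 (0.68 to 0.66), and Il27 to Trim21, Gm5431 and Snx2 (0.71 to 0.64). Il15 ran closest to Tpst1, Enpp4 and Nt5c3 (0.80 to 0.77), Il6ra to Tbcel, Cbl and Klf13 (0.80 to 0.78), and Il10ra to Inka1, Fez2 and Cyba (0.66 to 0.61). Units of a group and libraries of a batch are shared by both genes of each pair, so these values describe likeness only.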

How the data were processed

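Per the labels' protocols, QuantSeq forward libraries, whose reads lie near the 3′ end of transcripts, were read as 50 bp single reads. The files the authors deposited hold raw counts per gene symbol and, separately, a normalized signal named in the file headers as DESeq2 output. 100% of the signal values lay within 0.06 of the count divided by its size factor, and the signal was used for that check alone. STAR, Partek, DESeq2 and the mm10 build are named in the submitters' processing notes. The annotation and the use of strand are not given in the sources used here, so reads of genes that overlap on opposite strands may be mixed.

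Counts were analysed with edgeR 4.0.16 in R 4.3.3: TMM scaling, a minimum count of 10 in filterByExpr with the groups given (13169 of 16632 genes kept), the quasi-likelihood F test over all 14 groups, and Benjamini-Hochberg adjustment over all tested genes with a threshold of 0.05. Standard errors come from the fold change and its F statistic. A count of at most 3 is the floor for fold changes. The labels state no molecular identifiers, so limits cover counting error only. Same-numbered untreated libraries were summed. A chi-square per degree of freedom over genes was 10.3 to 12.1 between them and 24.2 to 288 for other untreated pairs. The experiment number pairs the samples: the labels share it across groups, and the correlation of same-numbered deviations was at least 0.199 in each pair, with means of 0.339 to 0.593 over comparisons. Alternatives were the replicate block, other scaling (RLE), DESeq2 1.42.0, no filter, only the groups compared, untreated libraries apart, no Rn45s, leaving out each experiment, and the block in experiments 1 to 3, which was added after seeing the data. The edgeR script was tested on simulated data.

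The 10 genes, and the lists of pathway genes and markers, were chosen with earlier results of these data known. All 10 were tested in every comparison, and their levels in all 14 groups are plotted. The text prints values for part of the groups and comparisons only. Pathway genes are named where called without the block, and with the block in aSyn-only against untreated cells alone. Il6st and Stat3 were named after their values were seen. The level of 1 microglia marker is not reported here by itself. The 3 most alike genes are those with the highest Pearson r of log2 CPM (prior count 2) with experiment means removed. Promoters are from RefSeq, GRCm38.p6, and gene positions from the GRCm38 annotation. Both strands were searched for 3 motifs.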

Additional observations from a re-analysis of the deposited data

Results flagged for a closer look

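In groups of 4 units, a unit was singled out where its gap to the nearest other unit took up more of the range of the group than Dixon's 95% limit. This gave 32 of 100 gene and group pairs, and 30 of the 32 were the unit of experiment 4, high in each case. The limit assumes normally distributed values, while CPM are skewed and often 0, so no chance rate is given. Where all other units hold 0 counts, a unit above 3 counts is always singled out. Il6 and Il12b, at 0 counts in 29 and 27 of 52 units, gave 9 pairs each. Pairs within experiment 4 share a batch, so they are not independent, and groups of 3 units were not tested.

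For Il6 these were the experiment 4 units of aSyn-only cells (9.34 CPM), of donors at 15, 30, 150 and 300 min (20.1, 10.9, 40.4 and 16.6 CPM) and of acceptors at 15, 30, 60 and 150 min (0.517, 1.38, 1.76 and 4.11 CPM). For Il12b they were untreated cells (0.264 CPM, 7 counts), aSyn-only cells (58.5 CPM), donors at 15, 30, 150 and 300 min (41.6, 63.9, 55.3 and 48.7 CPM) and acceptors at 15, 60 and 150 min (4.14, 3.15 and 6.71 CPM). Socs3 stood out in experiment 4 in aSyn-only cells (182 CPM), donors at 15, 30, 150 and 300 min (233.01, 185, 197 and 159 CPM) and acceptors at 60 and 150 min (195 and 154 CPM). The acceptors of experiment 4 at 15 and 30 min did not pass this limit for Socs3.

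Il10 stood out in experiment 4 in aSyn-only cells (6.28 CPM) and in donors at 15 and 150 min (6.34 and 9.63 CPM). Single units of experiment 4 were Il27 in aSyn-only cells (14.5 CPM) and Cish in acceptors at 150 min (5.92 CPM). Outside experiment 4 the untreated unit of experiment 2 stood out for Il10 (9.38 CPM) and Il15 (74.3 CPM), both in each of its 2 libraries. Its summed dendritic cell markers were at 10.1 CPM, the highest of the untreated group (median 1.38 CPM). Its oligodendrocyte lineage markers were at 116 CPM, the lowest of that group (median 204 CPM). The part of these markers was not tested. The markers and ribosomal share that move with experiment 4 are given with the depth of the libraries and with the cytokine results, and their part was not tested.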

How the results depend on the processing

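Depth limits Il6, Il12b and Cish, which lie at or under 3 counts in 37, 35 and 19 of 52 units. Without TMM scaling 140 of 140 group means moved by less than 1 SD. In aSyn-only against untreated cells, the count of called genes among the 10 went from 0 to 4 with the replicate block, and to 1 with the untreated libraries apart, with DESeq2 and with the block in experiments 1 to 3. It was 0 to 1 when each experiment was left out, Socs3 being called without experiment 4 (log2 fold change 2.39). For donors against aSyn-only cells it was 0, and 1 with the block in experiments 1 to 3. For acceptors against untreated cells over all times it went from 0 to 8 with the replicate block, 6 with the block in experiments 1 to 3, and 1 with DESeq2. For donors against acceptors it went from 0 to 10 with the replicate block, 4 with the block in experiments 1 to 3, and 1 with DESeq2 or only the groups compared. It was 0 to 2 when each experiment was left out: Socs1 at 30 min without experiment 2 (2.28), and Socs3 at 0 min (1.98) and 15 min (1.99) without experiment 4. The tests over time gave 0, then 2 with the block in experiments 1 to 3. They gave 0 to 1 when each experiment was left out, Socs3 in donors without experiment 4. In the comparisons where these counts rose with the replicate block, the share of all genes called rose too, as given with the results. Whether the rise is particular to the genes described therefore cannot be told from the counts.

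Calls in the pathway lists over all tests numbered 11, then 109 with the replicate block and 120 with the block in experiments 1 to 3. They numbered 21 with the untreated libraries apart and 23 with DESeq2. With only the groups compared they numbered 4, and with each experiment left out 2 to 23. The replicate block raised calls over all genes as well. Their share went from 2.5 to 19.2% in aSyn-only against untreated cells, and from 0.137 to 4.78% in acceptors at 150 min against untreated cells. A share of all genes over all tests is not given for each setting. Whether the rise is particular to the pathway lists therefore cannot be told from these counts. Of the alternatives of 26 single log2 fold changes, 230 kept direction and call, 43 passed the threshold anew and 1 reversed. That one was Il12b in acceptors at 0 min against untreated cells, at 1.36 with all experiments, -1.41 without experiment 2, and up to 1.76 without each of the others.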
